A study of Mus musculus with 2 samples.

Results

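Plasmacytoid dendritic cells (pDC) are rare blood-derived cells of the spleen that sense foreign nucleic acid, and 50 of them were found among 18316 kept spleen cells. They were chosen by their counts of 3 marker genes. A member had at least 3 unique molecular identifiers (UMIs, each counting 1 captured RNA molecule) summed over Siglech, Ccr9 and Cox6a2, at least 1 of them from Siglech, and no UMI of the B and T cell genes Cd79a, Ms4a1, Cd3d, Cd3e and Cd3g. The cells came from 2 droplet libraries of mouse spleen, 1 labelled M694I WT and 1 labelled M694I knock-in, where M694I is a change in Mefv, the gene for the inflammasome sensor pyrin. The mice were age-matched and kept free of specific pathogens, and their spleens were broken up mechanically and cleared of red cells. The labels name 1 mouse per library and give no sex, age, strain or number of pooled animals, and whether the knock-in is carried on 1 or both alleles was not given in the sources used here. As each genotype is a single library, nothing could be replicated or tested, and each value below compares these libraries and not the genotypes. All intervals are 95% intervals that cover counting error only.

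Plasmacytoid dendritic cells arise under the control of the E protein Tcf4, which also goes by E2-2, and keep the surface receptors Siglec-H and Bst2 in the mouse. They carry Toll-like receptors for RNA and DNA in endosomes, and after contact with virus they release large amounts of type I interferon through Irf7. Conventional dendritic cells (cDC) share a precursor with them but are specialised in presenting antigen to T cells.

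The wild-type library gave 21 members of 9733 kept cells and the knock-in library 29 of 8583. The members held a total of 102172 wild-type and 118424 knock-in UMIs. A wild-type member had 2675 to 6065 UMIs with a median of 4928, and a knock-in member 2011 to 5792 with a median of 4256. Median gene numbers were 1844 and 1612 per cell, and median mitochondrial shares 4.45% and 3.74%. Of all barcodes, 27 sequences occurred in both libraries, none of them in a member. The comparison class of cDC held 31 wild-type and 42 knock-in cells, chosen by at least 3 UMIs of Xcr1, Clec9a, Cd209a, Clec4a4, Clec10a, Zbtb46 and Flt3, not from Flt3 alone, with no UMI of the pDC gate or of the lymphoid genes. The cDC were deeper, with medians of 7180 and 5601 UMIs.

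The promoters of 4 genes that mark these cells are shown because they carry the same short E-box, CACCTG or its reverse complement CAGGTG, which is a preferred site of E proteins. Each window runs from 250 bases before to 50 after a RefSeq transcript start in GRCm38.p6, 5′ to 3′ on the gene's strand, with the E-box in capitals. Siglech lies at chr7:55767934-55768233 (plus strand), Ccr9 at chr9:123766961-123767260 (plus strand), Bst2 at chr8:71537423-71537722 (minus strand) and Klk1 at chr7:44225110-44225409 (plus strand). The E-box began at -20 in Siglech, -85 in Ccr9, -205 in Bst2 and -87 in Klk1, counted from the transcript start.
Siglech: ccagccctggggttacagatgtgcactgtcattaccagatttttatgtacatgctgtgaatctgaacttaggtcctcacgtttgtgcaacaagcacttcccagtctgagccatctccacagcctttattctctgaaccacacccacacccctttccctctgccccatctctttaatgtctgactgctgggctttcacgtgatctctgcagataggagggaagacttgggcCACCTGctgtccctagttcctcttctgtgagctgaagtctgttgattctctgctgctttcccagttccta
Ccr9: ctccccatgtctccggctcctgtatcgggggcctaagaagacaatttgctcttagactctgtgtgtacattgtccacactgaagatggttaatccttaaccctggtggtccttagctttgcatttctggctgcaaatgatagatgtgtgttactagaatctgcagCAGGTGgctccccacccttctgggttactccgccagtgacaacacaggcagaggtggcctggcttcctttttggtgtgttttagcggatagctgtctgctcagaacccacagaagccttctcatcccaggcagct
Bst2: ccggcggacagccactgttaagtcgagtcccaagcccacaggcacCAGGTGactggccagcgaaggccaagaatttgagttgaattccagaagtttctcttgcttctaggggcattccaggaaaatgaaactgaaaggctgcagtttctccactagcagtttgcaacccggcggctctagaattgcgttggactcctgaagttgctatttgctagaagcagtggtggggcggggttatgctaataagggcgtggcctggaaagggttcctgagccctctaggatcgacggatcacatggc
Klk1: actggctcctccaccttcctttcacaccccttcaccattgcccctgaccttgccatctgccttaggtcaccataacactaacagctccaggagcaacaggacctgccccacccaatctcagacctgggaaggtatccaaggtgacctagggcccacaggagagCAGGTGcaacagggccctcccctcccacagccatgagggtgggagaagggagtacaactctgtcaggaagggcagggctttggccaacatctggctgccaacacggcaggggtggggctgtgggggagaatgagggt
Searched on both strands, the E-box was in 6640 of 32851 RefSeq windows of this length (20.2%). Counted per gene, with any of its windows, it was in 6098 of 27025 genes (22.6%). Of the 41 genes of the gate and the pDC identity list, 30 had a window and 12 of these (40.0%) held the E-box. Among the genes at least 2-fold higher in pDC than in cDC it was in 27 of 134 (20.1%), beside 283 of all 1675 genes tested in that comparison (16.9%). These matches describe letters in a window, and no factor's binding was measured.

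The gate genes are given first as a description, because they chose the members. Siglech, the receptor Siglec-H on chromosome 7 from 55768178 to 55778925 (mm10, plus strand), had 195 UMIs in the wild-type members and 213 in the knock-in members. Ccr9, a gut-homing chemokine receptor on chromosome 9 from 123678439 to 123784330 (plus strand), had 128 and 135 UMIs. Cox6a2, a subunit of cytochrome c oxidase otherwise known from heart and muscle, on chromosome 7 from 128205435 to 128206387 (minus strand), had 109 and 197. The gate sum ran from 4 to 38 with a median of 20 in wild-type members and from 3 to 42 with a median of 18 in knock-in members. Just inside the threshold, 4 wild-type members and 1 knock-in member had sums of 3 to 5. Just outside it, 4 wild-type cells and 2 knock-in cells with Siglech had sums of 1 or 2. The lymphoid limit removed 13 wild-type and 11 knock-in cells that passed the rest of the gate. These were deep, with medians of 7574 and 6702 UMIs, and 10 and 7 of them had 3 or more lymphoid UMIs. No member was called a doublet by Scrublet.

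**Figure D1:**
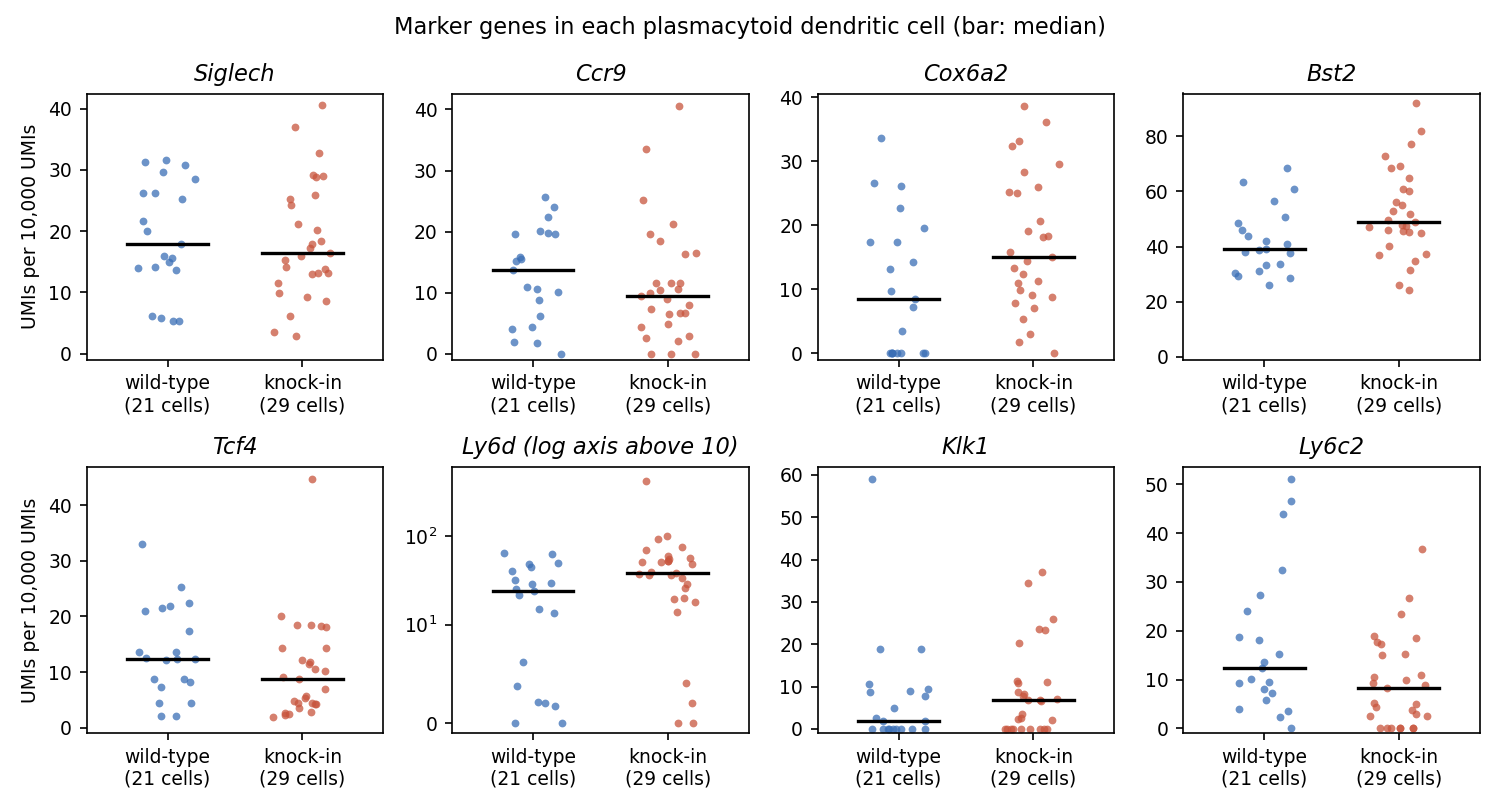
Level of 8 marker genes in each of the 21 wild-type and 29 knock-in pDC, as UMIs per 10000 UMIs of the cell; each point is a cell, bars are medians, and the Ly6d axis is logarithmic above 10. Bst2 and Tcf4 were above 0 in all 50 cells, while Cox6a2 was at 0 in 8 wild-type members and 1 knock-in member.

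Bst2, the fourth marker, did not enter the gate and was read as a check of the label. Bst2 codes for tetherin, which holds back budding virus and is induced by interferon, on chromosome 8 from 71534255 to 71537456 (minus strand). It had 439 UMIs in the wild-type members and 622 in the knock-in members and was seen in all 50 cells, at 24.2 to 92.1 UMIs per 10000. Among B cells, 12.0% of wild-type and 14.5% of knock-in cells had a Bst2 UMI, at lower median depths of 2387 and 1921 UMIs. Shares were also taken with cells thinned to 2000 UMIs, a step chosen after the data had been seen. Here and below, such shares leave out any cell with fewer than 2000 UMIs. In the wild-type library this dropped 1621 B cells and kept 4586. In the knock-in library it dropped 2831 and kept 2484. Each library also lost 1 cDC, and no pDC was lost. The thinned B cell values therefore describe the deeper B cells only. The expected share with Bst2 was 100% of pDC and 8.40% and 11.1% of B cells. Among cDC, 64.5% and 90.5% of cells had a Bst2 UMI, or 41.7% and 60.2% when thinned. Among the markers of other lineages, all 12 natural killer genes and 11 of 12 neutrophil genes had no UMI in any member. Lyz2, the lysozyme of monocytes and macrophages, had 0 wild-type UMIs and 8 knock-in UMIs, all in 1 cell. Over the 16 monocyte genes the summed level ran from 3.74 to 66.2 UMIs per 10000 in wild-type members and from 0 to 58.0 in knock-in members, and 8 of the genes, which include Ly6c2, had a UMI. The 12 macrophage genes summed to between 0 and 18.7 and between 0 and 7.93 UMIs per 10000. Markers of T cells and plasma cells were higher in pDC than in cDC. The 15 T cell genes summed to 871 and 676 CPM (counts scaled to a fixed total) in pDC and to 72.4 and 23.04 CPM in cDC, with a UMI in 20 of 21 and 23 of 29 members, at 0 to 29.5 and 0 to 19.9 UMIs per 10000. Most of these UMIs came from Il7r (54 and 41), Cd8b1 (23 and 16) and Cd4 (10 and 22), while 9 of the 15 genes had none in pDC, the Cd3 genes by the rule. The 11 plasma cell genes summed to 812 and 692 CPM in pDC and to 119 and 161 CPM in cDC, at 1.76 to 37.4 and 0 to 18.5 UMIs per 10000. These came mainly from Xbp1 (64 and 61 UMIs) and Mzb1 (17 and 17), and 6 of the 11 genes had none. The part of other cells in the members was not tested.

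The share of pDC was 0.216% of kept cells in the wild-type library (exact binomial interval 0.134% to 0.330%) and 0.338% (0.226% to 0.485%) in the knock-in library. The ratio of 1.57 had an interval of 0.863 to 2.89, so the libraries could not be told apart at these numbers of cells. The cDC shares gave a ratio of 1.54 (0.943 to 2.53). Members made up 40.4% of all pDC and cDC in the wild-type library (27.0% to 54.9%) and 40.9% (29.3% to 53.2%) in the knock-in library.

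Against cDC of the same library, pDC had more RNA of Tcf4, Irf8 and Spib, of the surface genes Ly6d and Lair1 and of the cathepsins Ctsl and Ctsb, and less of Cst3, S100a4 and Id2. Of 2117 genes with at least 20 UMIs over both classes in each library, 172 (8.12%) were at least 2-fold higher in pDC in both libraries and 164 (7.75%) at least 2-fold lower. The median log2 ratio over all tested genes was 0.02 in each library. On the pDC identity list, 18 of 25 tested genes were among those higher in both libraries and none among those lower, with medians of 2.69 and 2.00 on the log2 scale; genes with no cDC UMI stood at a floor of 3 counts. Scaling by TMM factors lowered every ratio by 0.26 and 0.32 and turned the counts into 126 higher and 225 lower.

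Of 19 tested lineage transcription factors, 7 were at least 2-fold higher in pDC in both libraries and 4 at least 2-fold lower. The shares over all tested genes were 8.12% and 7.75%. The medians of the list were 0.48 and 0.02. Tcf4 had 136 and 112 UMIs in pDC against 45 and 42 in the larger cDC pools. Its log2 ratio of pDC over cDC was 2.80 for wild-type and 2.55 for knock-in cells. Irf8, a factor that pDC share with the cDC1 subset, had log2 ratios of 2.94 and 2.93. These are ratios over the whole cDC pool and not over cDC1, and Irf8 was seen in 13 of 31 and 15 of 42 cDC. Spib, an Ets factor of pDC and B cells, stood at 4.29 and 4.38 on few UMIs, 17 and 19 in pDC. Runx2, a factor that helps pDC leave the bone marrow, was higher by 1.94 in wild-type and by 0.89 in knock-in cells. Mef2c, a factor of B cells and myeloid cells, was higher by 1.99 and 2.40. The E protein Tcf12 stood at 3.13 and 3.14. Zeb2 had log2 ratios of 0.08 and 0.02. The lower factors were Id2, an inhibitor of E proteins, at -3.34 and -5.35, and its relative Id3 at -1.32 and -1.10. The others were the myeloid factor Spi1 at -1.95 and -1.74, and Cebpb at -1.63 and -2.45. The Id2 ratios rested on few pDC UMIs, in 3 of 21 and 1 of 29 members with at most 2 and 1 per cell.

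Of 22 tested inhibitory and ITAM-coupled surface receptors, 7 were higher and 4 lower in pDC by the same limit. The shares over all tested genes were 8.12% and 7.75%. The higher ones include the gate gene Siglech, and the medians of the list were 0.56 and 0.34. Surface genes higher in pDC included Ly6d, a small anchored protein also found on B cells, on chromosome 15 from 74762056 to 74763620 (minus strand). Ly6d had 252 and 591 UMIs in pDC and none in cDC, at least 193-fold and at least 433-fold higher with the floor of 3 counts over each cDC pool. The inhibitory receptor Lair1 had log2 ratios of 6.49 and 3.94, from few cDC UMIs. Ly6c2, a marker shared with monocytes, stood at 2.49 and 1.87. Lag3, a receptor for class II, stood at 2.69 and 3.72. The coreceptor gene Cd4 had 10 and 22 UMIs in pDC and none in cDC, and Cd4 was seen in 5 of 21 and 9 of 29 members. Klk1, a kallikrein, had 74 and 104 pDC UMIs with 0 and 1 in cDC. Reads of Klk1 and its neighbour Klk1b27, as of Ly6c2 and its family, can be hard to assign between near-identical copies.

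Proteases followed with Ctsl, cathepsin L, higher by 4.84 and 4.17 on the log2 scale, and Ctsb, cathepsin B, higher by 2.43 and 2.44. Progranulin (Grn), a lysosomal protein that helps carry DNA to Tlr9, stood at 3.32 and 1.96. Genes at the other end belonged to cDC and monocytes. Cst3, cystatin C, had 119 and 176 UMIs in pDC against 2004 and 1998 in cDC, with log2 ratios of -2.87 and -2.37. S100a4 stood at -4.04 and -5.70, Plbd1 at -3.61 and -5.03, and Cd83, an activation marker, at -3.18 and -3.99. The interferon-inducible Ifitm3 stood at -3.58 and -6.62. Lyz2 was at least 82.0-fold lower in wild-type pDC than in wild-type cDC. The cDC class also held UMIs of other cells. Its natural killer list summed to 685 CPM in wild-type cells and 88.3 CPM in knock-in cells, and its neutrophil list to 575 and 15.4 CPM. Its monocyte list, which includes Lyz2 and S100a4, summed to 5405 and 8017 CPM. Single cDC held up to 407 and 450.5 UMIs per 10000 of that list, and Lyz2 was seen in 20 of 31 and 33 of 42 cDC. The part of these lists in the ratios was not tested by type. Without the cDC that held Ncr1, Nkg7, S100a8 or C1qa UMIs, 160 of 1958 tested genes were higher and 150 lower in pDC. That step was chosen after the data had been seen and used no gene of the monocyte list.

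**Figure D2:**
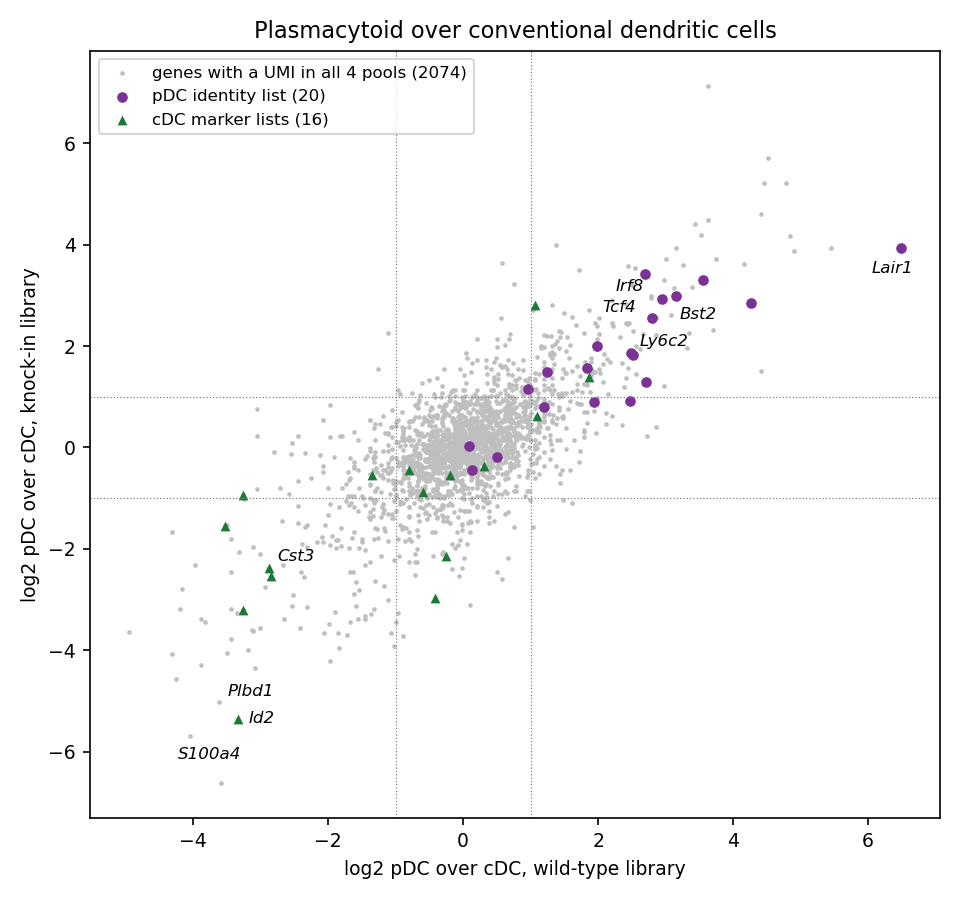
Log2 ratio of pDC over cDC in the wild-type library (horizontal) against the knock-in library (vertical) for 2074 genes with a UMI in all 4 pools; dotted lines mark 2-fold. Most of the 20 plotted pDC identity genes lie at upper right, with Lair1 at 6.49 and 3.94, and Cst3 and S100a4 lie at lower left.

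Subunit 6A of cytochrome c oxidase has 2 forms, of which Cox6a2 was a gate gene, so its difference between the classes was set by the rule. Cox6a1, the ubiquitous form, had 21 and 22 UMIs in pDC, fewer than Cox6a2 with 109 and 197. In cDC, Cox6a1 had 61 and 48 UMIs and Cox6a2 none, as the cDC gate required. Per UMI, Cox6a1 differed little between the classes, with log2 ratios of pDC over cDC of -0.34 (-1.13 to 0.40) and 0.01. The counts of 3′ tags do not scale with transcript length, but capture can differ between the 2 genes. Of the 16 oxidase subunits tested, none but the gate gene Cox6a2 was at least 2-fold higher in pDC in both libraries and none lower, with list medians of 0.05 and -0.08. Across 53 other nuclear genes of oxidative phosphorylation none was past 2-fold in both libraries.

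Immunoglobulin transcripts formed a further difference. Antigen receptor genes made up 0.236% of wild-type and 0.255% of knock-in pDC UMIs, against 0.0217% and 0.0234% in cDC. Ighm, the constant region of the mu heavy chain, had 114 and 130 pDC UMIs, with log2 ratios over cDC of 3.39 and 3.16. Ighm was seen in 20 of 21 and 27 of 29 members. Iglc3, a lambda light chain constant region, had 64 and 71 pDC UMIs and none in cDC, at least 49.1-fold and 52.0-fold higher. Igkc, the kappa constant region, had 23 and 67 pDC UMIs beside 16 and 13 in cDC. In B cells, Igkc was seen in 96.6% and 97.2% of cells and Iglc3 in 51.1% and 53.5%. With cells thinned to 2000 UMIs, the expected shares of pDC were 58.7% and 59.7% for Iglc3 and 31.9% and 41.7% for Igkc. For thinned B cells, which exclude those with fewer than 2000 UMIs, they were 42.6% and 51.2% for Iglc3 and 96.2% and 97.9% for Igkc. By this measure B cells more often held Igkc than pDC did. Before thinning, Iglc3 was seen in 71.4% (47.8% to 88.7%) and 69.0% (49.2% to 84.7%) of pDC. These intervals include the B cell shares of 51.1% and 53.5%, so Iglc3 did not tell the classes apart at these numbers of cells. The members were free of Cd79a and Ms4a1 by the rule, and a part of free B cell RNA or of B cells in the members was not tested. Dntt, the terminal transferase of lymphoid precursors, had 2 and 10 UMIs in 2 and 4 members.

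Nucleic acid sensing genes were present at low counts. Tlr7, the receptor for single-stranded RNA, had 13 and 12 UMIs in pDC and 0 and 1 in cDC. Tlr9, the receptor for DNA, had none in any member. Unc93b1, which carries these receptors to endosomes, had 51 and 60 UMIs, and the endosomal nuclease Pld4 had 74 and 73. Irf7, the master factor of interferon production, had 14 and 13 UMIs, seen in 9 of 21 and 13 of 29 members. All 20 type I and III interferon genes on the list had no UMI in any member, nor did Mefv. A count of 0 allows up to 29.4 CPM per gene over the wild-type members and 25.3 CPM over the knock-in members. Mefv, on chromosome 16 from 3707218 to 3718097 (minus strand), had 20 and 12 UMIs in cDC, or 85.1 and 46.1 CPM. The Mefv RNA count was therefore no check of the genotype labels in pDC.

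Between the libraries, 78 of 1680 genes with at least 20 UMIs in pDC (4.64%) were at least 2-fold higher in the knock-in library and 66 (3.93%) at least 2-fold lower, with a median log2 ratio of -0.01 over all tested genes. Without the members that held UMIs of other cell types' defining genes, 17 wild-type and 25 knock-in members remained. Of 1383 genes then tested, 65 were higher and 55 lower. On the pDC identity list, 1 of 32 measured genes was past 2-fold higher and 1 lower, with a median of 0.04. Bst2 had a log2 ratio of 0.29 (0.11 to 0.47) and Tcf4 one of -0.49 (-0.87 to -0.12), both under 2-fold with intervals that leave out 0. The intervals of Irf8, at 0.19 (-0.16 to 0.55), and Spib, at -0.05 (-1.08 to 0.98), included 0.

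Ly6d, the small anchored protein named above, stood at 2466 CPM over wild-type and 4991 CPM over knock-in members, a log2 ratio of 1.02 (0.80 to 1.24). Wild-type members had 0 to 64.8 Ly6d UMIs per 10000 with a median of 23.9, and knock-in members 0 to 412 with a median of 38.7. The ranges overlapped over nearly all cells, and 135 of the 591 knock-in UMIs came from 1 cell. Without the cell with most Ly6d UMIs in each library the ratio was 0.82. Ly6d is also a B cell gene, seen in 84.9% and 88.1% of B cells. Of the 6 measured genes of the B cell list, Ly6d itself and Igkc were past 2-fold higher and none lower. Over all tested genes the shares were 4.64% higher and 3.93% lower. Igkc stood at 1.33 (0.63 to 2.08), while Ighm stood at -0.02 (-0.40 to 0.35). In the knock-in library 20 Igkc UMIs came from 1 cell and 14 from another, while no wild-type member had more than 5. The Igkc interval does not cover such an uneven spread over cells. The list of 18 genes, Ly6d included, summed to 4639 and 7414 CPM in pDC and to 289 and 276 CPM in cDC, and 5 of its genes had no UMI in pDC, Cd79a and Ms4a1 by the rule. The part of B cell RNA in the Ly6d result was not tested.

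Other genes higher in the knock-in library included Cd52, a small lymphocyte surface antigen. Cd52 rested on 34 and 87 UMIs, a log2 ratio of 1.14 (0.56 to 1.76), and was seen in 16 of 21 wild-type and 29 of 29 knock-in members. In cDC Cd52 stood at 0.36 (0.17 to 0.55). The gate gene Cox6a2 helped choose the members, so its values describe them and are no difference between the libraries. It had a log2 ratio of 0.64 (0.30 to 0.99) and was seen in 61.9% of wild-type members (38.4% to 81.9%) and in 96.6% of knock-in members (82.2% to 99.9%), and in 0.435% and 0.489% of B cells. Thinned to 2000 UMIs, the expected Cox6a2 shares were 57.7% and 89.8%. Reep5, which shapes the endoplasmic reticulum, had a ratio of 0.77 in pDC and 0.75 in cDC. Oaz1, a brake on polyamine synthesis, stood at 0.68 in pDC and 0.26 in cDC.

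Among the named genes with at least 100 UMIs, the lowest ratio of knock-in over wild-type was that of Crip1, a small LIM protein of lymphoid and myeloid cells, on chromosome 12 from 113146316 to 113153879 (plus strand). Crip1 had 194 wild-type and 97 knock-in UMIs, a log2 ratio of -1.21 (-1.58 to -0.85), while in cDC it stood at 0.06 (-0.05 to 0.16). Wild-type members had 0 to 50.7 Crip1 UMIs per 10000 with a median of 17.1, and knock-in members 0 to 43.2 with a median of 4.60. The splicing factor Luc7l2 stood at -1.07 (-1.70 to -0.46). Foxp1, a forkhead repressor, stood at -0.88 in pDC and -0.71 in cDC. Ly6c2 stood at -0.87 (-1.22 to -0.53) in pDC and -0.25 (-0.74 to 0.24) in cDC. Selplg, the ligand of selectins, stood at -0.78 (-1.31 to -0.26) in pDC and 0.07 in cDC. The lectin-like receptor Klra17 had 17 and 5 UMIs and was seen in 52.4% (29.8% to 74.3%) and 13.8% (3.89% to 31.7%) of members, or 29.3% and 7.05% when thinned, beside 0.0905% and 0.0462% of B cells when thinned. The nuclear RNA Malat1 stood at -0.49 in pDC and -0.87 in cDC, so it was lower in the knock-in library in both classes.

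**Figure D3:**
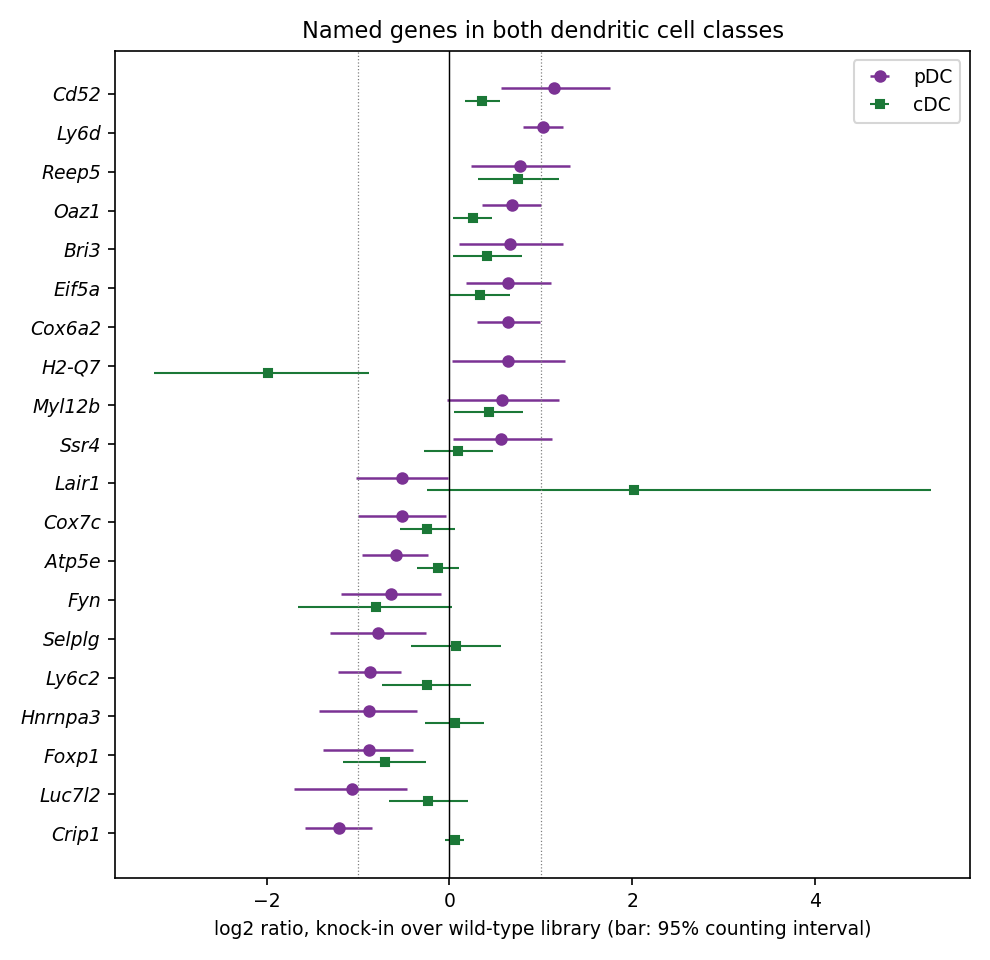
Log2 ratio of knock-in over wild-type library for the 10 highest and 10 lowest named genes, in pDC (circles) and cDC (squares); bars are 95% counting intervals, dotted lines mark 2-fold, and genes with no cDC UMI have no square. Crip1 stands at -1.21 in pDC and 0.06 in cDC, and H2-Q7 at 0.64 and -1.98.

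The study's title names interferon responses, and these lists were therefore read in pDC. Of 11 measured type I interferon response genes, 2 were past 2-fold higher and 1 lower, beside 4.64% and 3.93% of all tested genes, with a median of -0.15. The summed level of the list was 10189 CPM over wild-type and 10243 CPM over knock-in members, a log2 ratio of 0.01 (-0.11 to 0.13). The pDC marker Bst2 is on the list and gave 439 of its 1041 wild-type and 622 of its 1213 knock-in UMIs. Bst2 stood at 0.29, while Ly6c2, also on the list with 183 and 116 UMIs, stood at -0.87. The sum without Bst2 was not taken, so the value of 0.01 rests in large part on this marker. In cDC the same list summed to 7389 and 10421 CPM, a log2 ratio of 0.50. The 16 monocyte genes moved with it in cDC, from 5405 to 8017 CPM, a log2 ratio of 0.57 (0.47 to 0.67), and their part in the cDC value was not tested. The higher members were Ly6a (Sca-1), with 27 and 64 UMIs and a ratio of 1.03 (0.36 to 1.74), and Sp100, a nuclear body protein, with 6 and 14 UMIs and a ratio of 1.01 (-0.46 to 2.68). Ly6a stood at -2.47 in cDC, on 5 and 1 UMIs. The lower member, Ifitm3, had 21 and 5 UMIs in 4 and 2 members, a ratio of -2.28 (-4.05 to -0.84), while it stood at 0.75 in cDC. The Ifitm3 value rested on few cells and had the other sign under some choices of members. The median of this list moved to -0.64 when the gate sum was lowered to 2 and to 0.29 when cells with lymphoid UMIs were let in, so its sign depends on which cells count as members. Irf7 stood at -0.32 (-1.53 to 0.88) and Ly6e at -0.15 (-0.47 to 0.16).

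Of 8 measured interferon gamma response genes, 1 was past 2-fold higher and none lower, beside 4.64% and 3.93% of all tested genes. Their median was 0.16. The higher gene was Psmb10, an immunoproteasome subunit, with 9 and 27 UMIs and a ratio of 1.37 (0.24 to 2.65). Psmb10 was seen in 6 of 21 and 19 of 29 members, or in 14.5% and 39.0% when thinned, beside 9.43% and 15.1% of B cells. Its partners Psmb8 and Psmb9 stood at 0.14 (-0.41 to 0.71) and 0.56 (-0.35 to 1.51). In the class I antigen pathway, 2 of 13 measured genes were past 2-fold higher and none lower, beside 4.64% and 3.93% of all tested genes, with a median of 0.13. These were the non-classical class I genes H2-M3, at 1.03 on 8 and 19 UMIs, and H2-Q4. H2-Q4 had 4 and 24 UMIs, a ratio of 2.37 (0.83 to 4.36), and was seen in 3 of 21 and 17 of 29 members, or 6.58% and 32.6% when thinned, beside 28.2% and 30.2% of B cells. H2-Q7 stood at 0.64 (0.03 to 1.27) in pDC and -1.98 (-3.23 to -0.88) in cDC. The H2-Q genes are near-identical copies, so reads can be split among them, and H2-Q6 stood at -0.72 (-1.91 to 0.44). The classical genes H2-K1 and H2-D1 stood at 0.02 (-0.27 to 0.33) and 0.12 (-0.14 to 0.39).

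The 3 inflammatory lists held no gene past 2-fold higher. Over all tested genes, the shares beside the counts below were 4.64% higher and 3.93% lower. Of 9 measured genes of the pyrin and inflammasome list none was past 2-fold, with a median of -0.16; Rhoa, whose activity pyrin monitors, stood at -0.16 (-0.74 to 0.43) and Pycard, the adaptor ASC, at 0.37 (-0.67 to 1.46). Of 9 genes of the NF-kB list 2 were past 2-fold lower and none higher, with a median of 0.04 and a summed log2 ratio of -0.26 (-0.48 to -0.04). These were Ier5 at -1.37 (-2.44 to -0.38) and the chemokine Ccl4 at -1.05 (-1.85 to -0.28), which stood at 1.40 (0.46 to 2.43) in cDC. With cells thinned to 1000 UMIs the pDC ratio of Ccl4 took the other sign, at 0.70. Of 4 measured genes of the list of other cytokines and chemokines, 2 were past 2-fold lower and none higher, with a median of -0.78 and a summed log2 ratio of -0.54 (-0.84 to -0.24), and -0.34 (-0.55 to -0.13) in cDC. These were Ccl4 and Il12a, a subunit of interleukin 12, at -1.12 (-2.57 to 0.21) on 15 and 8 UMIs; Il12a also took the other sign after thinning, at 1.12. None of the 10 measured endosomal sensing genes was past 2-fold, with a median of -0.28. Nor was any of the 30 secretory pathway genes, with a median of 0.15. Among 15 lineage factors, 1 was past 2-fold lower: Klf4, with 20 and 6 UMIs, stood at -1.95 (-3.56 to -0.58) in pDC and 0.62 in cDC.

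**Figure D4:**
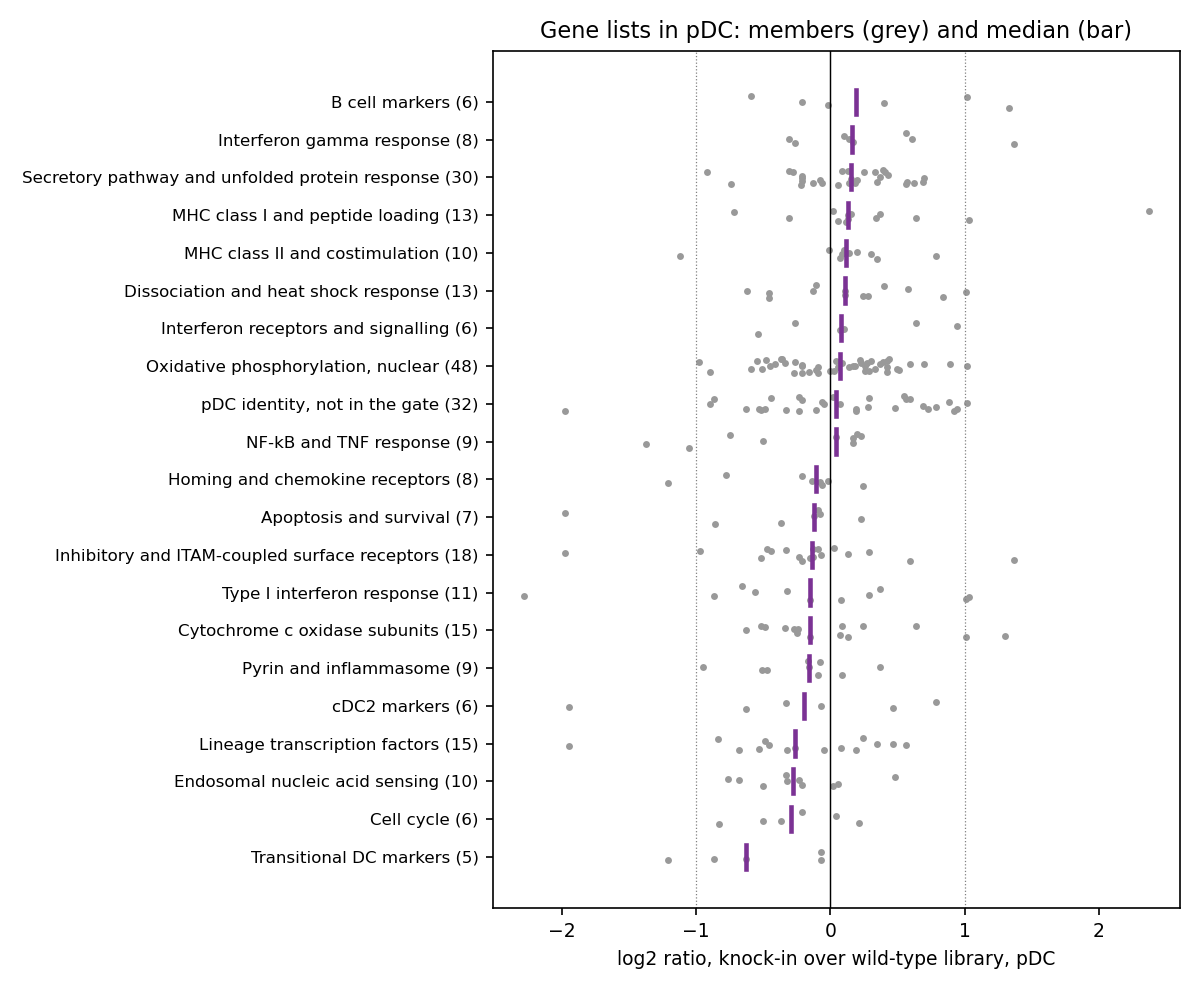
Log2 ratio of knock-in over wild-type library in pDC for the genes of each list with at least 20 UMIs (grey points, number in brackets) and the list median (bar), for lists with at least 5 such genes. Medians lay between -0.63 for the transitional list and 0.19 for the B cell list, and the outlying points include Ifitm3 at -2.28 and H2-Q4 at 2.37.

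The members were not uniform, and cells with little Ly6d differed from the others in the summed level of several genes in both libraries. Low Ly6d, at 2 or fewer UMIs, was seen in 7 of 21 wild-type and 4 of 29 knock-in members, a limit set after the values had been seen and given as a description. These cells had medians of 4899 and 4879 UMIs against 5024 and 4049. Their Tcf4 level was 16.3 and 9.05 UMIs per 10000, beside 11.9 and 9.54 in the other members, and Bst2 was at 36.1 and 39.7 beside 46.1 and 55.1. Class II genes were much lower in them: Cd74, the invariant chain, stood at 14.8 and 14.6 UMIs per 10000 against 103 and 110 in the other members. The whole class II and costimulation list stood at 53.1 and 57.8 against 227 and 227. The cells overlapped: the low cells had 12.2 to 168 in the wild-type and 22.6 to 119 in the knock-in library, the other members 15.6 to 335 and 29 to 485. Klk1 stood at 0.942 and 0.503 against 10.1 and 10.5, and Iglc3 at 0.942 and 0.503 against 8.67 and 7.1. Other B cell genes were lower too. The B cell list without Ly6d stood at 13.5 and 13.1 against 25.5 and 26.5, and Igkc at 0.628 and 1.01 against 2.99 and 6.6. The part of B cell RNA in these differences was not tested. The intermediate filament gene Vim went the other way, at 25.1 and 37.7 against 7.54 and 7.31, as did Crip1, at 28.3 and 18.1 against 14.8 and 6.19. Ccr2, a chemokine receptor of monocytes and precursors, had 9 and 4 UMIs in the low cells and 1 and 0 in the others. The list of transitional dendritic cell markers, cells between pDC and cDC, summed to 91.0 and 80.4 UMIs per 10000 against 44.4 and 29.5. Most of these sums came from Crip1 and Vim, given above, and from Ly6c2, so the list is no separate difference. Ly6c2 stood at 23.9 and 12.6 UMIs per 10000 against 15.2 and 9.24. Of the list's other genes, Cx3cr1 had 2 and 1 UMIs in the low cells and 0 and 1 in the others. S100a4 stood at 1.88 and 1.01 UMIs per 10000 against 0.284 and 0.101, and Cd209a at 2.83 and 4.02 against 2.13 and 1.01. Itgax stood at 1.26 and 0.503 against 0.569 and 0.406, and Cd8a at 0.314 and 0 against 0.142 and 0.71. These values all rest on few UMIs. Lyz2 had none in the low cells of either library and none in the other wild-type members. The low cells had median gate sums of 5 (wild-type) and 17.5 (knock-in), against 26.5 and 18.

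**Figure D5:**
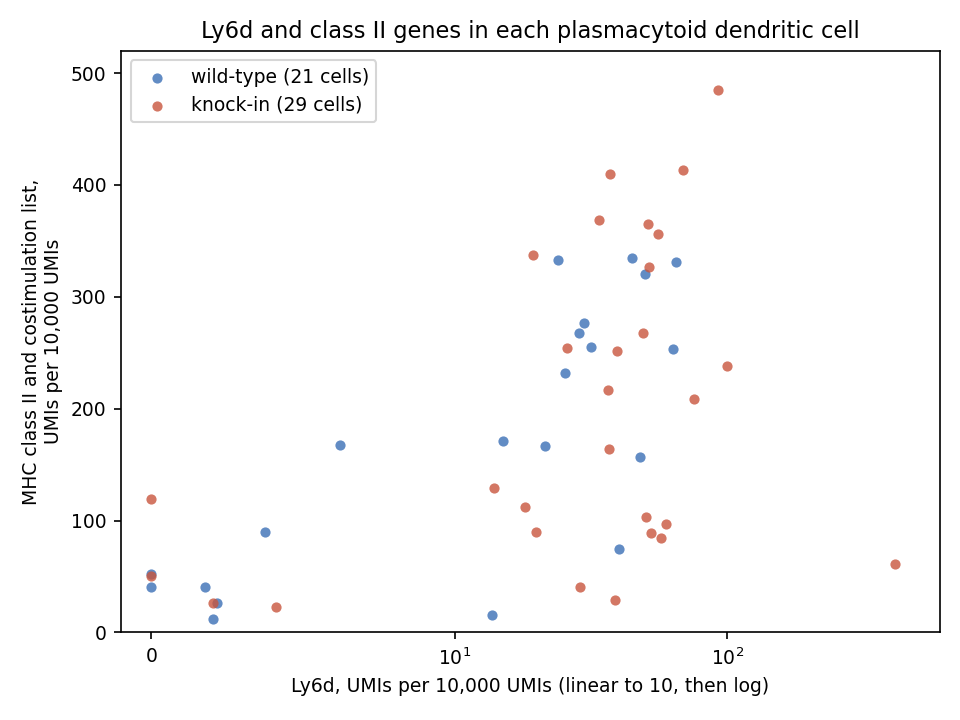
Ly6d (horizontal, linear to 10 and logarithmic above) against the summed class II and costimulation list (vertical), both as UMIs per 10000 UMIs, for each of the 21 wild-type and 29 knock-in pDC. The 7 wild-type and 4 knock-in cells with 2 or fewer Ly6d UMIs lie at left with class II levels of 12.2 to 168, and the knock-in cell with 135 Ly6d UMIs lies at far right with a class II level of 61.0.

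Since the low cells were 7 of 21 and 4 of 29 members, the ratios between the libraries were also taken without them. Ly6d then stood at 0.77 in place of 1.02, Crip1 at -1.26 in place of -1.21, Ly6c2 at -0.72 in place of -0.87 and Ifitm3 at 1.84 in place of -2.28. As the cells were left out by their own Ly6d count, the Ly6d value is no check of the Ly6d ratio. Genes past 2-fold were then 56 higher and 49 lower of 1251 tested.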

How the data were processed

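RNA of single spleen cells was captured with the 10x Genomics 3′ v3.1 kit, per the labels' protocols. The authors deposited 1 matrix of whole-number UMI counts per library. The file headers name Cell Ranger 6.1.2, while version 7.1.0, with Seurat 5.0.3 and the build mm10, stands in the submitters' processing notes; the annotation and the choice of barcodes were not given in the sources used here. Of 32285 features, 32235 (99.8%) matched GENCODE M21 by identifier and took their position from it.

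The cell filter required 500 or more UMIs, 200 or more detected genes and a mitochondrial share below 10%, and 9733 of 10449 barcodes (wild-type) and 8583 of 9000 (knock-in) passed it, with medians of 2557 and 2049 UMIs. The counts of each class were summed per library and scaled to a fixed total (CPM). Genes with at least 20 UMIs in the sum were compared, a 2-fold ratio was the limit for a call, and a count of 0 was given a floor of 3 counts. Intervals of ratios and shares are exact, at 95%. B cells had at least 3 UMIs of Cd79a and Ms4a1 and none of the Cd3 genes. No doublet caller entered the main values; Scrublet, run as an alternative, marked 2.28% and 2.03% of kept cells. The named genes were the 10 highest and 10 lowest between libraries at 100 UMIs or more, the 12 highest and 10 lowest between classes, up to 4 members of each of 35 lists by size and by level, the gate and Mefv. Any other gene named was chosen after its values were seen. The members and lists were chosen with earlier results of these data known. Promoter sequences are from RefSeq (GRCm38.p6). Ratios were checked on simulated counts that held counting error only, as the intervals assume. That check covers the calculation and not the spread between cells. Python 3.11.15 with numpy 2.4.6, scipy 1.17.1, pandas 2.3.3, scanpy 1.11.5 and matplotlib 3.10.9, and R 4.3.3 with edgeR 4.0.16 (for TMM factors only) were used. Some items are not reported here.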

Additional observations from a re-analysis of the deposited data

How the results depend on the processing

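No paired analysis was possible because each genotype had 1 library. For the same reason no result has a replicate check, and counts limit all ratios. Between the libraries in pDC, 144 of 1680 tested genes were past 2-fold. The number was 321 of 2983 with no limit on lymphoid UMIs and 28 of 356 with cells thinned to 1000 UMIs. It was 18 of 619 among genes with at least 50 UMIs and 567 of 3200 with at least 10. Between pDC and cDC, 336 of 2117 tested genes were past 2-fold in both libraries. This number was 221 of 1516 with a cDC gate sum of at least 5 and 58 of 335 after thinning. It was 127 of 845 at 50 UMIs and 603 of 3703 at 10. The median of the type I interferon response list, -0.15, was -0.30 with a mitochondrial limit of 5%, -0.64 with a pDC gate sum of at least 2, 0.29 with no lymphoid limit, -0.02 after thinning, 0.08 at 50 UMIs and 0.14 at 10 UMIs. Under the alternatives run, the ratio of pDC shares stayed inside its main interval, and the interferon gamma median moved by less than the error of its summed ratio's interval. Of 2235 values of 160 named genes under alternatives, 2154 lay inside the main interval, 73 outside it, and 8 were called ratios that took the other sign: Cd24a at 0.13 and Igkc at -0.49 with no lymphoid limit, Il12a at 1.12, Ccl4 at 0.70 and Gpr183 at 0.53 after thinning, and Ifitm3 at 0.02 with a gate sum of at least 5, 0.31 with no lymphoid limit and 1.84 without the members of 2 or fewer Ly6d UMIs, a step chosen after the data had been seen. The Ifitm3 value of 1.84 rested on 1 wild-type and 5 knock-in UMIs. Of 350 values of 23 other list medians, 302 moved by no more than the error of the summed ratio's interval and 48 by more. Thinning and the 50 UMI limit test fewer genes; for the other changes the cause was not tested.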
